A study of Homo sapiens with 3 samples.

Results

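The ZBTB genes encode transcription factors that join an amino-terminal BTB domain to C2H2 zinc fingers. The 40 gene symbols made of ZBTB, a number and at most a letter A or B were taken as the family, out of 35880 symbols, and they held 214 of the 185299 transcripts. The cells were untreated HEK293T, an embryonic kidney line of human origin into which the SV40 large T antigen had been introduced. It was grown in high-glucose medium with 10% serum and harvested at 70% confluence, and polyadenylated RNA of 3 libraries labelled biological replicates 1, 2 and 3 was sequenced. There was 1 group and no control or treatment, so each gene's level was set against a fixed level of 1 TPM (a transcript abundance scaled for transcript length and library size), and related genes were set against each other within a library. Nothing in the labels said that the 3 libraries came from separate cultures. The p-values therefore speak only of the spread among the libraries, which may be technical. Those of gene ratios may be too small, because the spread of the gene in the denominator enters every gene of that fit. The libraries held all 9 markers listed for HEK293T above 1 TPM, as were 58.5% of all genes tested, at a summed 685 to 699 TPM. VIM gave 401 ± 8.62 TPM of that sum (SD, n = 3). The lowest were PAX2 at 1.57 ± 0.0836 TPM and LHX1 at 5.53 ± 1.16 TPM. Markers of endothelium (3 of 3) and of liver (2 of 2) were below 1 TPM or at 0, with summed levels of 0.200 to 0.414 TPM and 0 to 0.0345 TPM. Of the blood markers, PTPRC was below 1 TPM at 0.320 ± 0.136 TPM (SD, n = 3), while CD3E and HBB were at 0. Of 2 fibroblast markers, summed at 1.18 to 1.40 TPM, DCN was below 1 TPM and COL3A1 was undecided at 0.922 ± 0.0966 TPM.

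The BTB domain, also called POZ, lets these proteins form dimers and recruit corepressors such as NCOR1 and BCOR, and in some relatives it serves as an adaptor for the ubiquitin ligase scaffold CUL3. The zinc fingers read specific DNA sequences, and a few members, with ZBTB33 (Kaiso) the best known, prefer methylated CpG sites. Most described members are repressors that act in cell fate choice, above all in blood cells and neurons, while others act at telomeres or with MYC. TPM of a whole culture gives RNA per total RNA, and fewer expressing cells and less RNA per cell cannot be told apart.

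The DNA just before the start of the member with the highest level (ZBTB33), of that with the lowest level above 0 (ZBTB8B) and of the member listed at 0 (ZBTB32) is shown because all 3 are rich in CpG although the levels of the genes differ. The sequences are RefSeq's, on GRCh38.p14, plus strand, 5′ to 3′, with CpG dinucleotides in capitals. They lie at chrX:120250562-120250751, chr1:32464822-32465051 and chr19:35704308-35704526.
ZBTB33: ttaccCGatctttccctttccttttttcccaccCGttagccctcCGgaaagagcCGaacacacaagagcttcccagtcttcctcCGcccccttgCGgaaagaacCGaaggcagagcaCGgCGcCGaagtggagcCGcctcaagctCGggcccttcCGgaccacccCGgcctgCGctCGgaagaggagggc
ZBTB8B: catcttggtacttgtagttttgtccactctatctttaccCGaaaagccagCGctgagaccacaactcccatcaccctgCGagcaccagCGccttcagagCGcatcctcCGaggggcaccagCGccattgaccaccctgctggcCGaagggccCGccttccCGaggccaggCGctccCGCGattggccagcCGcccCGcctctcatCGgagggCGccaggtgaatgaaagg
ZBTB32: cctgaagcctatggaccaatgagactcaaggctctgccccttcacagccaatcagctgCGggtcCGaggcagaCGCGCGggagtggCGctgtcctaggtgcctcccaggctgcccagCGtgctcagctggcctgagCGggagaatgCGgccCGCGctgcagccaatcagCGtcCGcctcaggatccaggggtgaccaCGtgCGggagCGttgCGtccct
The ZBTB33 stretch held 16 CpG in 190 bases, the ZBTB8B stretch 17 in 230 bases and the ZBTB32 stretch 17 in 219 bases. Their ratios of observed to expected CpG were 0.880, 0.758 and 0.689, all above the usual limit of 0.6 for a CpG island. RefSeq start windows (250 bases before to 50 after a start) were found for 34 of the 40 members, and ZBTB6, ZBTB10, ZBTB16, ZBTB17, ZBTB40 and ZBTB41 had none in the table. The 65 windows of members had a median of 21 CpG and 62.7% GC, against 14 CpG and 58.7% GC in all 35116 windows. A CpG ratio of at least 0.6 was found in 61.5% of the member windows and in 48.9% of all windows. Windows and not genes were counted, here and for the motifs below, so members with many windows weigh more. ZBTB38 and ZBTB20 had the most windows, and most of those had a ratio under 0.6. Kaiso's sequence TCCTGCNA, searched on both strands, lay in 4 member windows (6.15%) and in 4.69% of all windows. The TATA box TATAAA, searched likewise, lay in 6 (9.23%) and in 11.5% of all windows. Neither motif contains the other, and these matches describe the windows only.

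Nearly every ZBTB gene was transcribed in HEK293T cells at a low to middling level. Of the 40 members, 38 were called above 1 TPM by limma's moderated test with Benjamini-Hochberg adjustment, against 58.5% of the 21990 genes tested. None was called below, against 33.9% of genes tested, and all 39 tested members had a mean log2 level above that of 1 TPM. ZBTB20 was undecided, as were 7.64% of genes tested, and ZBTB32 was listed at 0 in all 3 libraries and could not be tested. The median over the 40 members was 9.91 TPM (quartiles 4.85 and 15.9), and over the 39 tested it was 9.93 TPM, against 4.29 TPM over all genes tested. The members together took 462, 457 and 467 TPM in replicates 1, 2 and 3, which is 0.0462% of all TPM. By mean level 7 members lay over 20 TPM, 11 between 10 and 20, 11 between 5 and 10, 10 between 1 and 5, and 1 at 0.

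**Figure D1:**
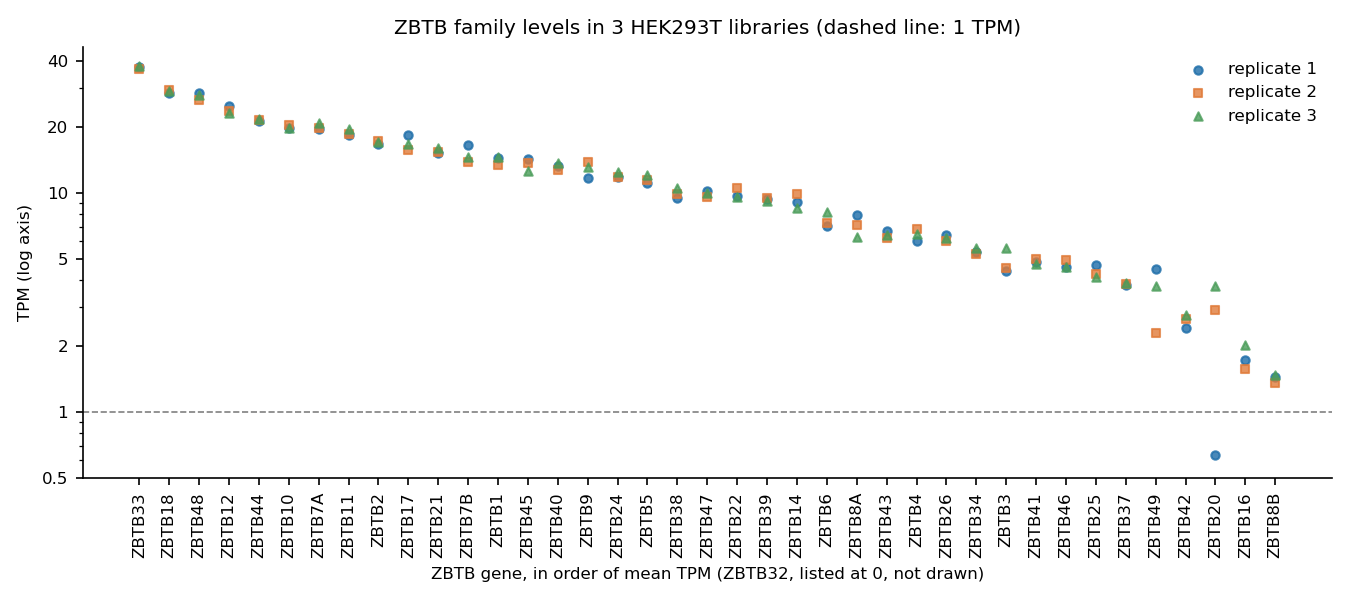
TPM of each ZBTB gene (log axis) in replicates 1, 2 and 3, with genes in order of their mean and 1 TPM as a dashed line. Levels run from 37.4 TPM for ZBTB33 to 1.42 TPM for ZBTB8B, and of the members drawn only ZBTB20 has a library below the line, at 0.634 TPM.

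The family was set beside other gene groups that share a domain with it. Of 556 zinc finger genes with a ZNF number, 400 (71.9%) were above 1 TPM, 84 below, 37 undecided and 35 at 0, with a median of 4.87 TPM. Of 37 KLHL genes, which pair the BTB domain with Kelch repeats, 23 (62.2%) were above, 9 below, 3 undecided and 2 at 0, with a median of 7.75 TPM. Among 19568 symbols with a protein-coding transcript 62.0% were above 1 TPM and the median was 6.59 TPM. Over tested genes alone the order of medians turned, at 9.93 TPM for the 39 members against 11.2 TPM for 17025 coding symbols, of which 71.2% were above 1 TPM. At the upper end 0 of 40 ZBTB genes exceeded 100 TPM, against 5 of the 556 ZNF genes, 0 of the 37 KLHL genes and 1619 of the coding symbols. These shares describe the groups, and no difference between them was tested.

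**Figure D2:**
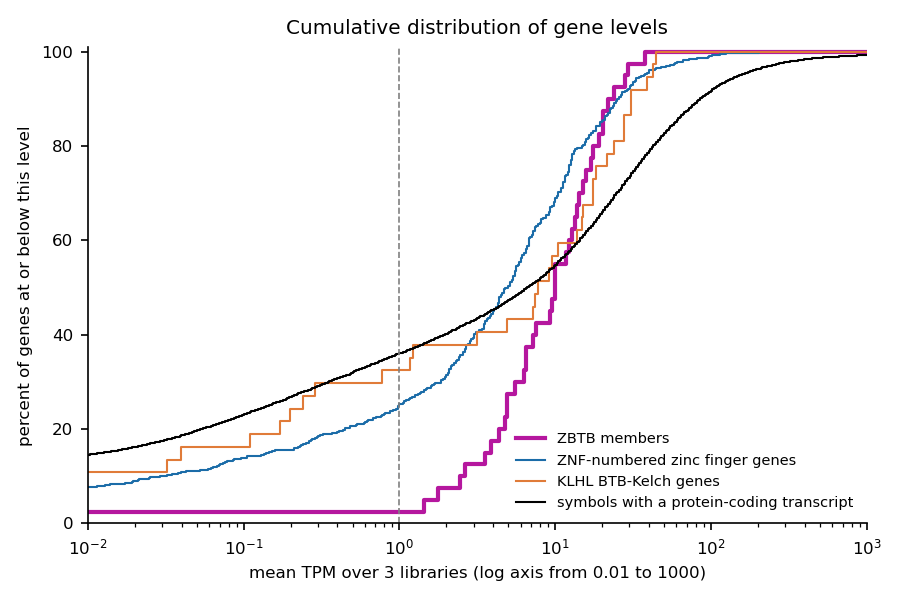
Percent of genes with a mean TPM over 3 libraries at or below each level (log axis from 0.01 to 1000 TPM), for ZBTB members, ZNF-numbered genes, KLHL genes and symbols with a protein-coding transcript. The ZBTB curve stays at 2.5% up to 1 TPM, where the ZNF curve is at 25.4%, the KLHL curve at 32.4% and the coding curve at 36.1%.

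Of the methyl-CpG readers in the family, ZBTB33 (Kaiso, ENSG00000177485, chromosome X:120250752-120258398, plus strand) had the highest level of all members. It was at 37.5, 36.9 and 37.8 TPM in replicates 1, 2 and 3, with a mean of 37.4 ± 0.448 TPM (SD, n = 3), and its range overlapped that of no other member. Its relative ZBTB38, which binds methylated CpG through part of its fingers, was at 9.48, 9.84 and 10.5 TPM. ZBTB4, the remaining Kaiso-like member, was at 5.99, 6.87 and 6.47 TPM. ZBTB33 exceeded ZBTB4 in every library, by a fold of 5.82 ± 0.439 (log2 ratio 2.52, SE 0.0689, limma adjusted p = 1.70e-12), where 44.4% of 21989 genes were called above ZBTB4. ZBTB4 was below ZBTB38 at a fold of 0.649 ± 0.0429 (log2 ratio -0.62, SE 0.0846, limma adjusted p = 0.000147), and 56.9% of genes were called below ZBTB38. That last order depended on short transcripts: with transcripts under 1000 bases left out, ZBTB38 had 6.14 ± 0.838 TPM, ZBTB4 kept 6.44 ± 0.437 TPM, and the log2 ratio was 0.075 (adjusted p = 0.651). In the list of 11 methyl-CpG binding proteins and partners all 11 were above 1 TPM, against 58.5% of all genes tested. They ran from MBD3, a subunit of the NuRD repressor complex, at 165 ± 1.22 TPM down to ZBTB4. CTNND1, the p120 catenin through which Kaiso was first found, was at 57.3 ± 1.23 TPM.

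ZBTB18 (RP58, a repressor needed for cortical neurons, ENSG00000179456, chromosome 1:244048939-244057476, plus strand) came second at 28.6, 29.6 and 29.1 TPM. ZBTB42, its closest relative in the family, was at 2.40, 2.66 and 2.76 TPM. The pair differed by a fold of 11.2 ± 0.685, larger than the mean fold of any other pair fitted (log2 ratio 3.43, SE 0.0695, limma adjusted p = 3.83e-14), and 52.1% of genes were called above ZBTB42.

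The telomere binders were among the higher members. ZBTB48 (TZAP, which binds telomeric repeats and promotes telomere trimming, ENSG00000204859, chromosome 1:6580001-6589280, plus strand) was at 28.5, 26.6 and 28.0 TPM. ZBTB10, which binds variant telomeric repeats, was at 19.8, 20.5 and 19.9 TPM. ZBTB48 was higher than ZBTB10 in every library, but over coding transcripts alone the order turned, at 18.5, 17.9 and 19.5 TPM for ZBTB48 against 19.8, 20.5 and 19.9 TPM for ZBTB10. The other 6 telomere genes listed were all above 1 TPM, as were 58.5% of all genes tested. They ran from TERF2IP (RAP1) at 63.2 ± 1.70 TPM to POT1, which binds the single-stranded overhang, at 20.8 ± 2.66 TPM. ZBTB10 had the lowest mean of the 8.

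ZBTB17 (MIZ1, the MYC partner that activates CDKN1A and CDKN2B when MYC is not bound) was at 18.4, 15.6 and 16.7 TPM, with replicate 1 highest. MYC was at 113 ± 1.86 TPM and its dimer partner MAX at 102 ± 5.78 TPM. All 10 genes of the MIZ1 and MYC list were above 1 TPM, against 58.5% of all genes tested. They ran from NPM1 (nucleophosmin, a MIZ1 coactivator) at 4957 ± 31.5 TPM to MXD1, a MYC antagonist, at 2.57 ± 0.348 TPM. Of 7 textbook targets of members 3 were above 1 TPM: CDCA7 (78.4 ± 1.53 TPM), CDKN1A (14.2 ± 1.33 TPM) and CDKN2B (4.90 ± 0.595 TPM). HBG2, the fetal globin gene repressed by ZBTB7A, was called below 1 TPM with 0.0876 TPM in replicate 1 and 0 in the other two. AFP, the fetal liver gene repressed by ZBTB20, was called below with 0, 0.0800 and 0.0866 TPM, while HBG1 and MMP7 were at 0. Which factor sets the level of these targets was not tested.

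ZBTB24, mutated in a form of ICF syndrome (immunodeficiency with centromeric instability) and an activator of CDCA7, was at 12.0 ± 0.410 TPM. It had the lowest mean of the 7 genes listed for ICF syndrome and DNA methylation, which ran up to DNMT1 at 157 ± 5.82 TPM. All 7 were above 1 TPM, against 58.5% of all genes tested. The other ICF genes DNMT3B, CDCA7 and HELLS were at 25.5 ± 0.741, 78.4 ± 1.53 and 89.6 ± 4.50 TPM.

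ZBTB members known from blood cells spanned the range. ZBTB7A (LRF, a repressor of fetal globin) was at 19.6, 19.7 and 20.7 TPM, and its relative ZBTB7B (ThPOK, the factor of CD4 T cell fate) at 16.6, 13.8 and 14.5 TPM. The pair did not overlap, with a fold of 1.35 ± 0.143 (log2 ratio 0.42, SE 0.106, limma adjusted p = 0.000202), and 33.1% of genes were called above ZBTB7B. Over coding transcripts alone the pair lay farther apart. ZBTB7A kept its levels, and ZBTB7B was at 9.98, 10.3 and 10.5 TPM. ZBTB7C, left out by the naming rule, was undecided at 1.19 ± 0.181 TPM (limma adjusted p = 0.173). ZBTB1, needed for lymphoid development, was at 14.4, 13.3 and 14.6 TPM. ZBTB46, a marker of classical dendritic cells, was at 4.59, 4.92 and 4.60 TPM. ZBTB25, a repressor described in T cells, was at 4.69, 4.25 and 4.14 TPM. These 5 ZBTB members, ZBTB7C apart, were called above 1 TPM in libraries with 0 TPM of CD3E and HBB. Of all genes tested, 58.5% were called above 1 TPM.

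At the low end, ZBTB16 (PLZF, the factor of innate-like T cells and spermatogonia) was at 1.73, 1.56 and 2.01 TPM and was above 1 TPM (log2 0.81, SE 0.119, limma adjusted p = 0.00298). ZBTB32 (PLZP, ENSG00000011590, chromosome 19:35704527-35717038, plus strand), a relative of ZBTB16 and a repressor found in activated lymphocytes, was at 0, 0 and 0 TPM. No ratio was formed against it. ZBTB8B was the lowest member above 0, at 1.44, 1.35 and 1.48 TPM (log2 0.50, SE 0.110, limma adjusted p = 0.0108).

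ZBTB20, which represses AFP in liver and shapes the hippocampus in mice, differed most between libraries, at 0.634, 2.91 and 3.74 TPM. Replicate 1 was below 1 TPM and the other two above it, and the mean of 2.43 ± 1.61 TPM was undecided (log2 0.92, SE 0.556, limma adjusted p = 0.175). ZBTB45, its closest relative, was at 14.3, 13.7 and 12.6 TPM. ZBTB45 exceeded ZBTB20 by folds of 22.5, 4.72 and 3.38 in replicates 1, 2 and 3 (log2 ratio 2.74, SE 0.990, limma adjusted p = 0.00893), with 43.4% of genes called above ZBTB20. The ratio was positive in every library. The call was lost without replicate 2 (adjusted p = 0.299) or replicate 3 (adjusted p = 0.164). ZBTB20's own spread is shared by all genes of that fit, so the limma adjusted p of 0.00893 may be too small.

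By TPM, the ZBTB20 level came mostly from transcripts that do not encode the protein, and non-coding types held 88.3% of it. By reads the split was the other way, out of an estimated 83.7 in replicate 1. The coding ZBTB20-201 held 66.7 of these and the non-coding ZBTB20-218 held 14.7. ZBTB20's exons share 15214 bases with AC093010.3, a non-coding RNA on the same strand that was not quantified. Whether its reads were counted as ZBTB20 was not tested. ZBTB20-208, a processed transcript of 241 bases, was at 0, 2.22 and 2.34 TPM and made up most of the gap between replicate 1 and the other libraries. ZBTB20-218, a processed transcript of 1495 bases, was at 0.484, 0.393 and 0.895 TPM. The coding ZBTB20-201, of 27125 bases, was at 0.104, 0.103 and 0.118 TPM. On so short a transcript a few reads are worth several TPM: ZBTB7B-205, of 243 bases, had 2.83 TPM in replicate 1 from an estimated 5 reads. With transcripts of at least 1000 bases alone ZBTB20 was at 0.614, 0.565 and 1.06 TPM, below 1 TPM on average at 0.745 ± 0.271 TPM and still undecided (log2 -0.48, limma adjusted p = 0.0713).

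**Figure D3:**
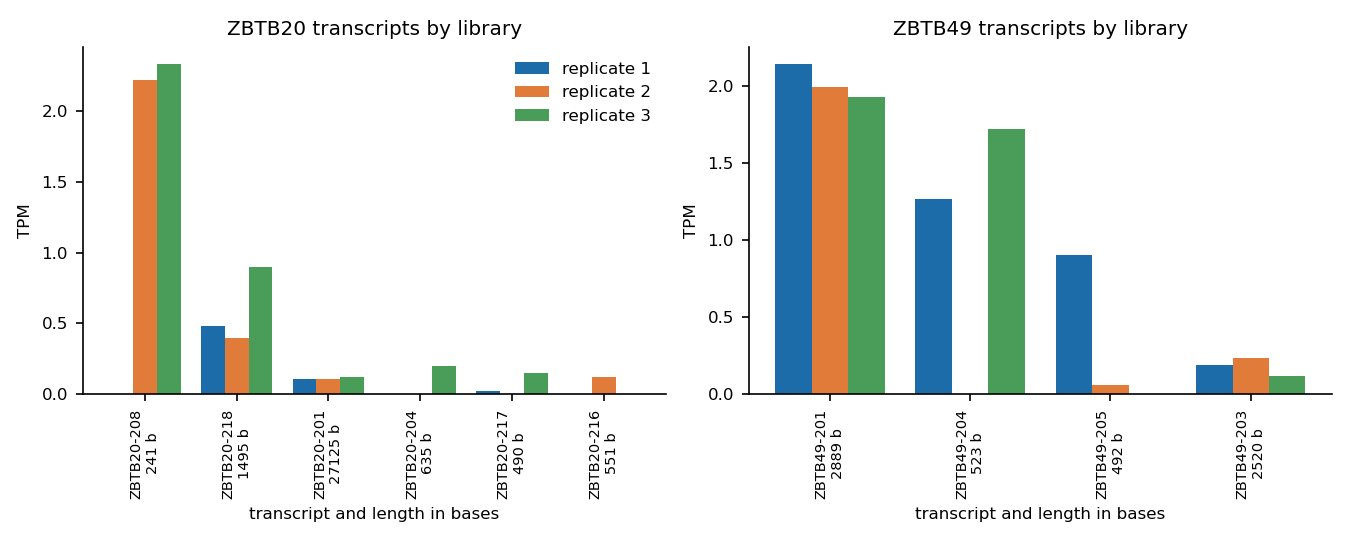
TPM of the transcripts of ZBTB20 (left) and ZBTB49 (right) in replicates 1, 2 and 3, as bars from 0, each with its length in bases, for transcripts with a mean over 0.03 TPM. The long coding transcripts are level across libraries (ZBTB49-201 at 2.14, 1.99 and 1.93 TPM), and the short ones are at or near 0 in some library, such as ZBTB20-208 in replicate 1.

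ZBTB49, an activator of CDKN1A, showed the next largest spread, at 4.50, 2.29 and 3.76 TPM with replicate 2 low. Its main coding transcript ZBTB49-201 was steady at 2.14, 1.99 and 1.93 TPM. The coding ZBTB49-204, of 523 bases, was at 1.26, 1.38e-07 and 1.72 TPM, and ZBTB49-205, of 492 bases and of the nonsense-mediated decay type, at 0.899, 0.0606 and 0 TPM. Without transcripts under 1000 bases ZBTB49 was at 2.20 ± 0.149 TPM. ZBTB3 was at 4.41, 4.55 and 5.59 TPM, with short transcripts holding 42.7% of its level. Over the family the coefficient of variation between libraries had a median of 4.04%, against 4.54% over 13475 genes of at least 1 TPM. It was under 5% in 23 members and over 10% in 5, namely ZBTB20 (66.3%), ZBTB49 (32.0%), ZBTB3 (13.3%), ZBTB16 (12.8%) and ZBTB8A (11.6%). Set against limma's prior variance in an F-test, the spread of 0 of the 39 members passed after adjustment, as did 0% of 13475 genes. Before adjustment 2 members, ZBTB20 and ZBTB49, and 554 genes in all had a p under 0.05.

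Several members lie beside each other on a chromosome, and the neighbouring pairs tested differed in level. Positions are those of GENCODE 29 on hg38. ZBTB1 and ZBTB25 lie on opposite strands of chromosome 14 and overlap at their starts. Of several RefSeq starts the nearest pair, at 64503887 for ZBTB1 and 64503838 for ZBTB25, had 48 bases between them, and other ZBTB25 starts lie inside ZBTB1. ZBTB1 exceeded ZBTB25 by a fold of 3.24 ± 0.246 (log2 ratio 1.67, SE 0.0784, limma adjusted p = 7.06e-09), and 48.1% of genes were called above ZBTB25. ZBTB6 and ZBTB26, 2235 bases apart on chromosome 9 and on the same strand, were closer. ZBTB6 was at 7.04, 7.31 and 8.17 TPM and ZBTB26 at 6.42, 5.99 and 6.21 TPM, a fold of 1.21 ± 0.110 (log2 ratio 0.27, SE 0.0760, limma adjusted p = 0.0135), with 45.1% of genes called above ZBTB26. Their ranges did not overlap, but without replicate 3 the call was lost (adjusted p = 0.0909). ZBTB7A over ZBTB7B lost its call in the same way (adjusted p = 0.0850). ZBTB8A and ZBTB8B lie 42740 bases apart on chromosome 1. ZBTB8A was at 7.95, 7.13 and 6.30 TPM, which is 5.02 ± 0.660 times ZBTB8B (log2 ratio 2.24, SE 0.0920, limma adjusted p = 4.08e-07), with 56.2% of genes called above ZBTB8B. ZBTB37 was at 3.79, 3.83 and 3.87 TPM and its relative ZBTB34 at 5.36, 5.25 and 5.57 TPM. ZBTB37 was lower at a fold of 0.710 ± 0.0176 (log2 ratio -0.48, SE 0.0830, limma adjusted p = 0.00175), with 50.4% of genes called below ZBTB34. All 9 pairs that could be fitted were called, a count to be read beside those shares of all genes. Their p-values may be too small, as said at the start.

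**Figure D4:**
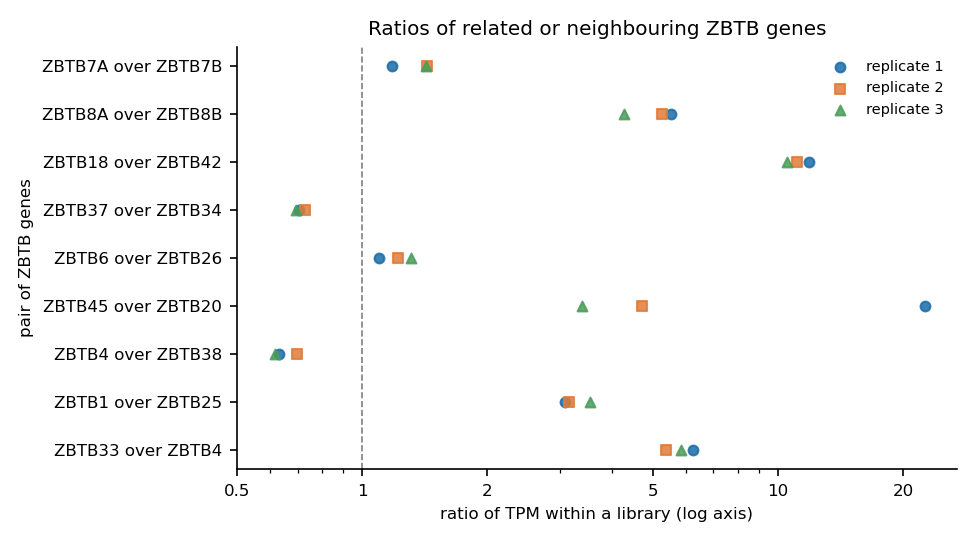
Ratio of TPM within each library (log axis) for 9 pairs of related or neighbouring ZBTB genes, with replicates 1, 2 and 3 as separate points and a ratio of 1 as a dashed line. All points of a pair lie on the same side of the line, and ZBTB45 over ZBTB20 is the pair whose libraries are farthest apart, from 3.38 to 22.5.

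The remaining members had fewer described roles or none given here. ZBTB12 was at 24.8, 23.5 and 23.1 TPM and ZBTB44 at 21.2, 21.4 and 21.8 TPM. ZBTB11, needed for neutrophils in zebrafish, was at 18.4, 18.6 and 19.7 TPM, and ZBTB2, a repressor tied to the p53 pathway, at 16.7, 17.2 and 17.1 TPM. These 4 were steady across libraries. ZBTB21 had a mean of 15.6 ± 0.401 TPM, ZBTB40 of 13.2 ± 0.460 TPM, ZBTB9 of 12.9 ± 1.10 TPM and ZBTB5, a repressor of CDKN1A, of 11.5 ± 0.488 TPM. ZBTB47 (9.93 ± 0.300 TPM), ZBTB22 (9.89 ± 0.516 TPM), ZBTB39 (9.35 ± 0.158 TPM) and ZBTB14, a repressor of MYC (9.16 ± 0.707 TPM), lay next to each other near the family median. ZBTB43 was at 6.45 ± 0.237 TPM and ZBTB41 at 4.82, 4.96 and 4.75 TPM. In the order of means 26 of the 39 neighbouring pairs of members overlapped in their ranges over libraries and 13 did not. The first 5 members, ZBTB33, ZBTB18, ZBTB48, ZBTB12 and ZBTB44, each stood apart from the next one down. From ZBTB2 to ZBTB5 every neighbour overlapped the next.

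Members differed in how many transcripts carried them. ZBTB33 was carried by ZBTB33-201 (84.9% ± 1.49 of the gene's TPM) and ZBTB18 by ZBTB18-202 (66.1% ± 0.813), both coding. In ZBTB48 the coding ZBTB48-202 held 37.4% ± 3.29, and non-coding types held 32.7%, led by the retained-intron transcript ZBTB48-206 at 5.37, 4.72 and 5.02 TPM. ZBTB44-205 held 47.1% ± 2.11 of ZBTB44. ZBTB7A split into ZBTB7A-201 (55.5% ± 2.48) and ZBTB7A-202 (44.5% ± 2.48), which are both coding. ZBTB10-204 held 54.2% ± 3.48 of ZBTB10, ZBTB17-202 held 59.1% ± 3.83 of ZBTB17, ZBTB21-205 held 39.2% ± 3.95 of ZBTB21, ZBTB7B-202 held 39.3% ± 11.9 of ZBTB7B and ZBTB38-222 held 30.5% ± 3.72 of ZBTB38. The most abundant transcript was the same in all 3 libraries in 21 of 24 members with at least 5 TPM and over 1 transcript (87.5%), against 87.3% of 10081 genes, a share near that of all genes. The exceptions were ZBTB8A, ZBTB14 and ZBTB45. For ZBTB8A, ZBTB8A-202 was at 3.65, 3.66 and 4.10 TPM and the shorter ZBTB8A-201 at 4.30, 3.47 and 2.20 TPM, so that ZBTB8A-201 led in replicate 1 alone. ZBTB14-201 led in replicate 3 with 53.1% and ZBTB14-202 in the other libraries with 32.2% and 30.2%. ZBTB45-205 led in replicate 1 with 40.7% and ZBTB45-202 in replicates 2 and 3 with 35.4% and 40.9%. Apart from ZBTB20, the members with over 25% of their TPM in non-coding types were ZBTB48, ZBTB17 (32.0%), ZBTB7B (30.7%), ZBTB46 (30.7%) and ZBTB3 (28.2%). Transcripts under 1000 bases held 0% at the family's median and 20.4% at the median of all genes of at least 1 TPM. They held over 25% in 9 members and none of the TPM in 20.

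**Figure D5:**
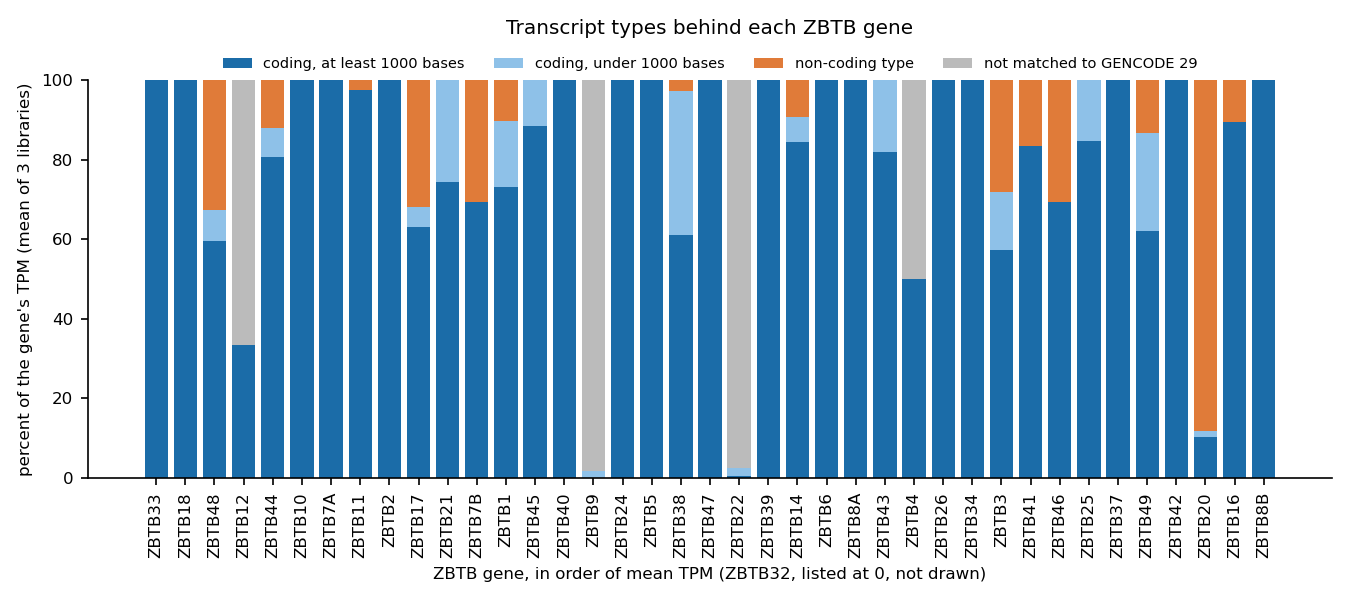
Share of each ZBTB gene's TPM (percent, mean of 3 libraries) in coding transcripts of at least 1000 bases, shorter coding transcripts, transcripts of a non-coding type and transcripts not matched to GENCODE 29. Non-coding types hold 88.3% in ZBTB20 and 32.7% in ZBTB48, and unmatched transcripts hold 98.3% in ZBTB9 and 97.5% in ZBTB22.

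Some levels rest on sequence that other entries share. For ZBTB12, 3 transcripts of 1875 bases had the same 8.28, 7.84 and 7.70 TPM, of which 1 matched GENCODE 29 and 2 did not. ZBTB22 rested on a pair of unmatched transcripts of 2651 bases, each at 4.37, 4.55 and 4.33 TPM, while the matched transcript of that length was at 0. ZBTB4 had such a pair of 5866 bases at 1.72, 2.41 and 1.93 TPM each, and another of 5956 bases at 1.27, 1.02 and 1.31 TPM each. ZBTB9 was carried by an unmatched transcript of 2716 bases at 11.7, 13.7 and 12.6 TPM, with ZBTB9-201 of the same length at 0. The sum over these entries is the level given above for each gene. Words of 31 bases were taken only from transcripts matched to GENCODE 29. Of those in ZBTB9's transcripts, 96.1% also occurred in transcripts of other symbols, so its reads may be split and its level is uncertain. Shared words made up 36.9% in ZBTB8A and 20.2% in ZBTB8B, both mostly with AL033529.1, a transcript that joins exons of the pair, at 2.17 ± 0.103 TPM. The share was 13.3% in ZBTB12 (ZBTB12BP, a pseudogene), 11.4% in ZBTB3 (MDM4), 8.66% in ZBTB25 (SPG7) and 7.65% in ZBTB24 (MICAL1), at most 5% in the others, and 0 in 19 members. ZBTB22 is among those at 0, but unmatched transcripts, which added no words, held 97.5% of its TPM. Unmatched transcripts also held 98.3% in ZBTB9, 66.7% in ZBTB12 and 50% in ZBTB4, and the shares of these members leave them out. Exons on the opposite strand overlapped 11 members, with 507 bases between ZBTB1 and ZBTB25, 178 between ZBTB25 and MTHFD1 (299 ± 7.65 TPM) and 179 between ZBTB8A and ZBTB8OS (84.8 ± 0.206 TPM). The kit marks strand but the quantification's strand setting was not given, and the part of these overlaps in the levels was not tested. On the same strand, the non-coding AC093010.3 shares 15214 exonic bases with ZBTB20. It was not among the quantified symbols, so it added no shared words, and its part was not tested either.

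The listed partners of BTB domains were all above 1 TPM, as were 58.5% of all genes tested and 71.2% of the coding symbols tested. The count of each list below is to be read beside those shares. All 17 listed corepressors and ligase subunits were above 1 TPM, with a median of 54.5 TPM, from HDAC1 at 338 ± 6.77 TPM to HDAC4 at 7.05 ± 1.00 TPM. NCOR1 was at 75.9 ± 2.33 TPM, BCOR at 99.7 ± 2.49 TPM and CUL3 at 61.6 ± 1.33 TPM. All 15 listed subunits of the NuRD and CtBP repressor complexes were above 1 TPM too, from RBBP4, a histone chaperone, at 386 ± 5.24 TPM to RCOR1, a scaffold of the LSD1 complex, at 17.4 ± 0.580 TPM. Of 9 BTB zinc finger genes outside the naming rule, 8 were above 1 TPM and ZBTB7C was undecided. The 8 ran from PATZ1 at 43.8 ± 0.277 TPM, a level above that of every ZBTB member, to HIC1, a tumour suppressor, at 2.17 ± 0.465 TPM. In the list of 8 genes with roles in lymphoid and myeloid cells 7 were above 1 TPM and ZBTB32 was at 0.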

How the data were processed

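Polyadenylated RNA of 3 untreated HEK293T libraries was selected with oligo-dT and sequenced from strand-marking libraries, per the labels' protocols. Transcripts were quantified with kallisto on hg38, per the submitters' processing notes, and its version, options, strand setting and transcript set are not given in the sources used here. Per the file headers, the authors deposited the TPM of each transcript in each library, with its length and effective length. A deposited column of estimated counts names no library. Rescaled by effective length, these expected counts matched replicate 1 in TPM to within a relative 1.08e-05 for transcripts over 0.01 TPM, and they summed to 33184885. The members held 41897 of them, with a median of 800.5 per member and a range of 83.7 to 4099 above 0. TPM keeps no depth for the other libraries, so no counting interval was given.

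TPM was summed by gene symbol. Levels were tested with limma 3.58.1 in R 4.3.3 on log2(TPM + 0.01) against 1 TPM, over the 21990 symbols above 0 in at least 1 library, with a mean-variance trend. Differences on this scale understate those of low genes. Calls used a Benjamini-Hochberg adjusted p under 0.05. Pair ratios were tested likewise on within-library differences of log2(TPM + 0.1), fitted over all genes. Each fit subtracts the same reference gene from every gene, so that gene's spread is shared by all and enters limma's prior variance. The genes of a fit are then not independent, and the pair p-values may be too small. Spread was tested by an F-test over genes with a mean of at least 1 TPM. Transcript types and positions came from GENCODE 29, which matched 199 of the 214 member transcripts (198 with the same length) and may not be the authors' release. The tests were checked on simulated data. TMM factors came from edgeR 4.0.16.

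The members, lists and tests were chosen with earlier results of these data known. Every member was named. Values per library were given for the 10 highest, the 10 lowest above 0, those at 0 or undecided and those in pairs. Transcripts were named for the 5 highest and for members of at least 5 TPM whose main transcript held under 60% or changed, and from other lists the highest, the lowest and the undecided genes. Genes named beyond this rule were chosen after their values were seen. Some genes of the lists are not reported here.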

Additional observations from a re-analysis of the deposited data

How the results depend on the processing

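The count of 38 members above 1 TPM was also 38 under other pseudocounts, filters, TMM or median-of-ratios scaling, a fit with no trend and rescaling without mitochondrially encoded genes, which shifted the median log2 level by 0.0986. It was 39 against 0.5 TPM and 36 against 2 TPM. The level of comparison moved the smaller counts: 0 members were undecided at 0.5 TPM, and at 2 TPM 1 was below and 2 were undecided. At 2 TPM the log2 level was -0.49 for ZBTB8B, -0.19 for ZBTB16 and -0.069 for ZBTB20. ZBTB20 was above 0.5 TPM (log2 1.91, limma adjusted p = 0.0291). Leaving out each library in turn gave 38 to 39 members above 1 TPM, 0 below and 0 to 1 undecided. ZBTB20 was called above without replicate 1 (log2 1.71, limma adjusted p = 0.00431), and 6 to 9 pair ratios were called. Excess spread stayed at 0 members, and 21 to 23 members kept the same main transcript. Keeping only transcripts of at least 1000 bases was chosen after seeing the data. It gave a log2 level of -0.48 for ZBTB20 and a log2 ratio of 0.075 for ZBTB4 over ZBTB38, and it left 38 members above 1 TPM, where 64.9% of genes were called above. No paired analysis was possible because the study has 1 group. Transcripts under 1000 bases can rest on few reads, and TPM keeps no depth for replicates 2 and 3.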
